A study of Mus musculus with 6 samples.

Results

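Very distal pAs are the cleavage and polyadenylation sites that end a transcript far downstream of the first pA of its last exon. A last-exon pA of a protein-coding RefSeq transcript was counted as very distal when it lay more than 5000 nt downstream, on the strand of the gene, of the most proximal last-exon pA listed for that gene. By this rule, which used positions and no read count, 1233 of 45187 last-exon pAs were very distal, in 653 of 15931 genes. The reads came from testes of FVB mice at 1 week (1w), 2w, 3w, 4w, 5w and 6w after birth, sequenced by 3'READS, a method that captures the poly(A) tail and reads the adjoining 3' end of the RNA. Each age had 1 library, so the 4–6 week samples (4w, 5w and 6w) were set against the 1–3 week samples (1w, 2w and 3w), with 3 libraries on each side that differ in age. The labels name no treatment or mutation, and how many animals went into each library is not given in the sources used here. An SD over 3 libraries here covers differences between ages as well as technical spread.

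Cleavage and polyadenylation is directed by a hexamer upstream of the cleavage site, most often AATAAA or ATTAAA, which the factor CPSF binds, together with U-rich and GU-rich elements around it. Where a gene has several pAs in its last exon, use of a downstream pA gives the mRNA a longer 3'UTR, with more room for microRNA and protein binding, while the coding region stays the same. Male germ cells are known for preferring upstream pAs as spermatocytes become spermatids.

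The table held 3529414 to 5479133 PASS reads (reads with unaligned T from the poly(A) tail) per library, and very distal pAs took 0.349 to 1.15% of the last-exon reads. Cell types changed between the periods. All 7 of the spermatid markers with a last-exon pA were higher in every 4–6 week sample than in any 1–3 week sample, with summed levels of 108702 to 241105 RPM (reads per 1000000 reads of the table) in 4–6 week samples and 81.8 to 682 in 1–3 week samples. All 9 Sertoli cell markers measured were lower in every 4–6 week sample, at 483 to 1131 against 2765 to 7801 RPM summed. Of 8 spermatogonial markers 6 were lower and 1 higher without overlap, the higher one being Gfra1, which had no last-exon read in 1–3 week samples. Spermatocyte markers summed to 6435 to 11270 RPM in 4–6 week samples and 1324 to 15576 in 1–3 week samples, with 3 of 7 above and none below. Of 6 markers of peritubular, vascular and blood cells, 5 were lower, and of 4 Leydig cell markers 1 was lower. Rhox5, Odf1, Insl3 and Hbb-b1 had no last-exon pA in the table. These shifts run together with every result below, their part in it was not tested, and in whole testes a change within a cell type and a change in cell make-up cannot be told apart.

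The distances spread widely. The median distance was 6858 nt, the middle 50% lay between 5724 and 10421 nt, and 414 pAs were within 6000 nt. Beyond 10000 nt there were 338, beyond 50000 nt 38 and beyond 100000 nt 11, with the farthest at 333710 nt in Ptprk. Read in the mm9 annotation, the members were of several kinds. In 375 pAs of 230 genes the very distal pA and the most proximal one lay in the same annotated exon, as in a long continuous 3'UTR. In 326 pAs of 111 genes an annotated exon of the gene began between them, so the pair of pAs can belong to alternative last exons joined by splicing. In 494 pAs of 320 genes the very distal pA lay past the annotated end of the gene, by 27 to 17595 nt (median 5280.5 nt). The other 29 pAs fell in none of these kinds, and 9 belonged to genes whose symbol the annotation did not hold. Each pA was counted in the first of these kinds that it met, in the order given. Some pAs of the spliced kind, such as that of Rnf41, therefore also lay past the annotated end. With 24 nt allowed past the end of an exon or gene, the same-exon kind held 51.1% of very distal reads, the spliced kind 32.7% and the kind past the annotated end 14.6%. Reads 3' of an annotated end were assigned to the gene by the authors, and 3' end reads alone do not show whether the transcript is that of the gene. Another protein-coding gene began on the same strand before 8 of the members, and 6 members lay in an exon annotated to another symbol.

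Most members were rare. They had 2 to 13264 reads over all 6 libraries, with a median of 14, and 528 had under 10 reads. Those with 50 reads or more numbered 333. In 224 cases the very distal pA was the most used last-exon pA of its gene, and in 312 of the 653 genes the most proximal pA that sets the distance held under 5% of the last-exon reads. At the edge of the rule the values were small. Just inside, the pA of Mars2 at 5001 nt had 1, 0, 1, 0, 0 and 2 reads at 1w to 6w, and that of Hook3 at 5002 nt had 0, 1, 1, 0, 0 and 0. Just outside, a pA of Pdpk1 at 5000 nt had 3, 4, 0, 0, 0 and 0 reads.

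The sequences before the pAs are shown first for genes in which 2 very distal pAs exchanged places with age, for Lamp2 and Baz2b at the pA that gained share and for Plk4 at both, since each pA carries its own signal. Each line gives the 30 bases of the RNA strand, 5′ to 3′, that end at the pA, from the mm9 genome, with the polyadenylation hexamer in capitals.
Lamp2 at 9266 nt (chrX:35774829-35774858, minus strand): AATAAAgcaagtacaagttctcgcatgcaa
Baz2b at 42555 nt (chr2:59738263-59738292, minus strand): ccctctcAATAAAtatctatttttcatttt
Plk4 at 10791 nt (chr3:40620362-40620391, plus strand): ttAATAAAtgactttttggctggctttcaa
Plk4 at 11205 nt (chr3:40620776-40620805, plus strand): aaAATAAAcacagtggtaagttttccttaa
AATAAA stood before the pA that gained share in each of these genes, and in Plk4 also before the pA that lost it, at 11205 nt. In D17Wsu92e, which had the same kind of exchange, none of the hexamers searched stood in the 40 nt before the pA that gained share, at 14219 nt, and ATTAAA stood before the pA that lost it, at 16762 nt.

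A further set shows pAs with some of the largest falls in share, for Pdpk1 and Lypla1 beside the upstream pA with most reads, because the hexamers of each pair differ.
Pdpk1 at 5130 nt (chr17:24210649-24210678, minus strand): tagtcttgtAATAAAagcatgtagagtgta
Pdpk1, most proximal pA (chr17:24215779-24215808, minus strand): caaatagccaacaaacaggaattcagggtc
Lypla1 at 5657 nt (chr1:4836787-4836816, plus strand): aatgtgaAATAAAatttaattttggcttta
Lypla1 at 4120 nt (chr1:4835250-4835279, plus strand): catgggaAATATAtgatccttttaagtgtc
Lpp at 13152 nt (chr16:24992635-24992664, plus strand): aaaatccAATAAActtctcattccacttaa
Arl5b at 5984 nt (chr2:15004050-15004079, plus strand): atttttgtcatAATAAAtactttttcagta
Rlim at 5213 nt (chrX:101152504-101152533, minus strand): tatagactatcAATAAAatgcatgaagtga
The most proximal pA of Pdpk1 had none of the 11 hexamers searched in the 40 nt before it. Not all large falls were at an AATAAA. The pA of Pappa at 5671 nt, which had the largest fall, had AATATA in the 40 nt before it and neither AATAAA nor ATTAAA.

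The last set shows the pAs past the annotated end that were among the largest rises, and for Cpne1 the pA at the annotated end as well.
Cpne1 at 8409 nt (chr2:155890640-155890669, minus strand): cctcatgttgggtgacctccaacCATAAAa
Cpne1 at 1468 nt (chr2:155897581-155897610, minus strand): atgtatcAATAAAattaatatatccacctc
Cnnm3 at 7549 nt (chr1:36590049-36590078, plus strand): agaaaaaaaaaaaAAAAAGactacagacca
2010011I20Rik at 6060 nt (chr2:172184479-172184508, plus strand): cttaagaaaacaggctgtacactttttaaa
Papd5 at 5749 nt (chr8:90787184-90787213, plus strand): ataaaggctttgtgctttcatttatcttaa
The pA of 2010011I20Rik had no listed hexamer within 40 nt, that of Papd5 had an AATAAA that begins just before the 30 bases shown, and the CATAAA of Cpne1 began 6 nt before the pA. The AAAAAG of Cnnm3 is the end of a run of A.

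Over all members, the hexamers searched in the 40 nt before the pA on the RNA strand were AATAAA, then ATTAAA, then 9 rarer variants, each pA being counted once under the first that matched. The variants in their order were AGTAAA, followed by TATAAA, followed by CATAAA, followed by GATAAA, followed by AATATA, followed by AATACA, followed by AATAGA, followed by AAAAAG, and lastly ACTAAA. The hexamer AATAAA stood before 627 of 1233 very distal pAs (50.9%, 95% Wilson interval 48.1 to 53.6%), against 16940 of 43954 other last-exon pAs (38.5%, 38.1 to 39.0%). ATTAAA was found before 14.6% of the members and 14.1% of the others, and none of the 11 hexamers before 210 of the members and 26.6% of the others. The first base of AATAAA lay most often 22 nt before the very distal pA. Within pAs of 50 reads or more, 66.1% of very distal pAs (60.8 to 70.9%) and 54.8% of others (54.1 to 55.6%) had AATAAA, and within pAs of under 10 reads 40.2% (36.1 to 44.4%) and 23.1% (22.4 to 23.8%). The gap was there at like read numbers, with intervals that did not overlap. By kind, AATAAA stood before 65.3% of same-exon members, 49.2% of members past the annotated end and 36.5% of members behind a splice acceptor. The most proximal pAs of the same 653 genes had it in 22.8% of cases. A stretch of genome with 7 or more A in the 10 nt after the pA was rare, at 8 of 1233 members (0.649%) and 0.535% of other last-exon pAs.

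To ask how the use of very distal pAs changed in the first wave of spermatogenesis, their reads were set against all last-exon reads of the same genes. Pooled over the 653 genes the share was 33.0, 32.4, 28.8, 23.9, 21.9 and 20.9% at 1w to 6w, each with a 95% Wilson interval within 0.4 percentage points of the value. The 4–6 week samples averaged 22.2% ± 1.51 and the 1–3 week samples 31.4% ± 2.27 (SD, n = 3 each), with no overlap between the periods. With 3 libraries against 3 an exact two-sided permutation test cannot give a p below 0.1, so no test was made of this single value. The pooled share weights each gene by its reads. It can therefore also move when gene levels change while the use of pAs within each gene does not, and these parts were not separated. In raw reads, very distal pAs had 17676, 17098 and 17513 at 4w, 5w and 6w, against 42535, 34928 and 23903 at 1w, 2w and 3w. The later libraries were deeper in raw reads. The TMM scaling used below for levels gave them smaller factors, 0.847, 0.648 and 0.556 at 4w to 6w against 1.53, 1.62 and 1.33 at 1w to 3w. On that scale the later libraries count as the smaller ones, so the fall in raw reads depends on the scaling. The typical gene used its very distal pAs little. Over the 324 genes with 20 last-exon reads or more in every library, the median share was 11.2, 12.2, 7.5, 4.38, 4.73 and 4.20% at 1w to 6w.

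**Figure D1:**
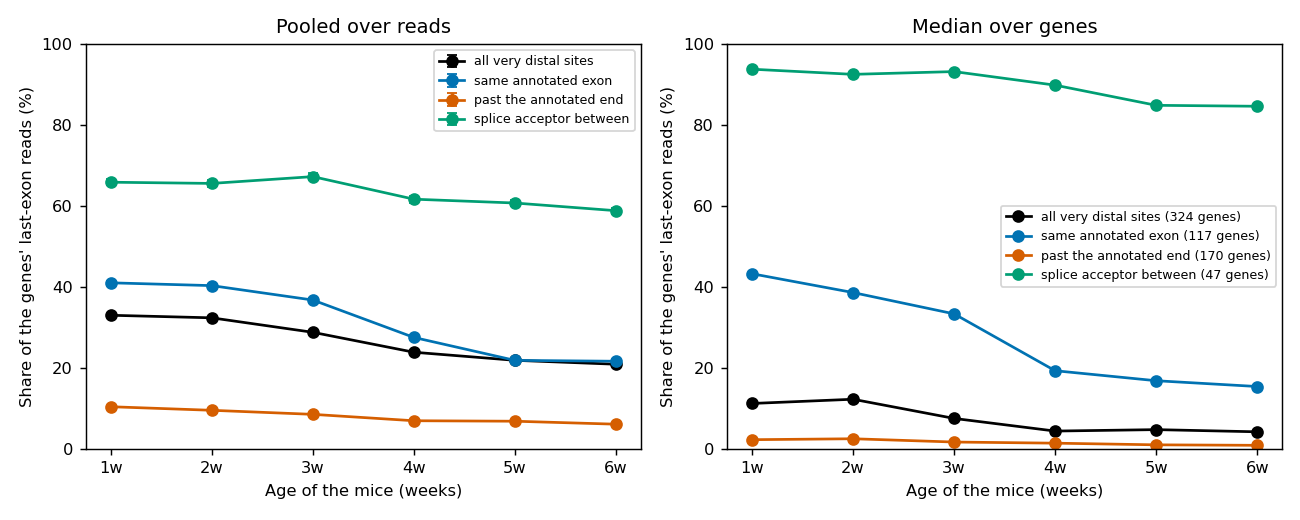
Share of the genes' last-exon reads at very distal pAs (y axis, %) against age (x axis, weeks), for all members and the 3 main kinds; left, pooled over reads with 95% Wilson intervals as bars, which are mostly smaller than the points; right, the median over genes with 20 reads or more in every library. The same-exon kind had the steepest decline, with a pooled share of 41.0% at 1w and 21.6% at 6w. Pooled shares also move with the levels of single genes.

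The kinds differed in level and in course. Same-exon members had a pooled share of 23.7% ± 3.33 in 4–6 week samples and 39.4% ± 2.28 in 1–3 week samples, and the median over their 117 genes was 17.2% ± 1.97 against 38.4% ± 4.96 (SD, n = 3 each). Members past the annotated end had 6.61% ± 0.462 of reads in 4–6 week samples and 9.47% ± 0.943 in 1–3 week samples. Members behind a splice acceptor had the highest shares of the 3 kinds, with a pooled share of 60.4% ± 1.45 in 4–6 week samples and 66.2% ± 0.897 in 1–3 week samples and a median over 47 genes of 86.4% ± 2.95 and 93.2% ± 0.636. The genes of this kind were divided, since 28 to 30 of the 47 had over 50% of their reads at these pAs in any one library and 5 to 8 had under 1%. The pooled share of this kind also depends on genes with many reads and nearly all of them at the very distal pA. Reads there rose from 73 at 1w to 906 at 6w in Letm2, from 1 to 1223 in Spata3 and from 86 to 1188 in Pcmt1. The pooled courses were not computed without them. No test of the difference between kinds was made.

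Few genes crossed 50% in the summed share of their very distal pAs. Exchanges between very distal pAs of 1 gene, given further on, are not counted here. Of the 324 genes, 62 had over 50% of last-exon reads at very distal pAs in all 6 libraries, 25 of them over 90%, and 214 were under 50% in all 6. In 16 genes the very distal share was under 50% in every 4–6 week sample and over 50% in every 1–3 week sample. In the opposite direction there were 3 genes, Cnnm3, Cpne1 and Maf1. Maf1, a repressor of RNA polymerase III, was singled out after its values were seen, and had shares of 51.0, 51.2 and 52.6% at 4w, 5w and 6w, against 14.3, 15.5 and 33.2% at 1w, 2w and 3w. Among the 16, also named after their values were seen, were Rora, a nuclear receptor, at 16.5 and 76.4% (means of 4–6 week and 1–3 week samples), Ube3a, a ubiquitin ligase, at 29.8 and 75.4%, the growth factor gene Igf1 at 35.3 and 67.4%, and the transcription factor gene Foxk1 at 45.2 and 90.9%.

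Each pA was next tested for a change in its share of the gene's last-exon reads, with edgeR's quasi-likelihood test on the counts of the pA and of the rest of the gene, over all 17025 last-exon pAs with enough reads and with Benjamini-Hochberg adjustment over all of them. Of the 1233 members 499 in 289 genes could be tested. The others were left out because the gene had under 20 last-exon reads in some library (598 pAs), the pA had under 5 reads in all (134) or the rest of the gene had under 5 (2). At an adjusted p under 0.05, 118 very distal pAs (23.6%) had a lower share in 4–6 week samples, where 15.1% of all tested last-exon pAs did. A higher share was called for 42 members (8.42%), against 17.4% of all tested pAs. The median log2 change of the odds of using the pA was -0.88 over the 499 members and -0.06 over all tested pAs. Without overlap between the periods, 172 members were lower in every 4–6 week sample (24.1% of all tested pAs were) and 54 were higher (23.7% of all). Of the 118 lower calls 64, and of the 42 higher calls 24, held in each of the 6 fits that left out 1 library. Without 6w the calls were 75 lower and 26 higher, without 1w 88 lower and 27 higher, and without 3w 151 lower and 55 higher. A pA with no call is not shown to be unchanged.

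By distance, lower calls were fewer and higher calls more frequent beyond 5000 nt than at 1001 to 5000 nt. The share of tested pAs called lower was 1.04% for the most proximal pAs, 28.7% at 1001 to 2000 nt, 29.1% at 2001 to 3000 nt, 276 of 951 at 3001 to 5000 nt, 25.1% at 5001 to 10000 nt and 19.4% beyond 10000 nt. The share called higher was 43.2% for the most proximal pAs, 1.55% at 2001 to 3000 nt, 2.84% at 3001 to 5000 nt, 7.30% at 5001 to 10000 nt and 11.6% beyond 10000 nt. The last bin held 129 pAs in 58 genes, and several pAs of 1 gene share its reads, so these shares are a description.

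**Figure D2:**
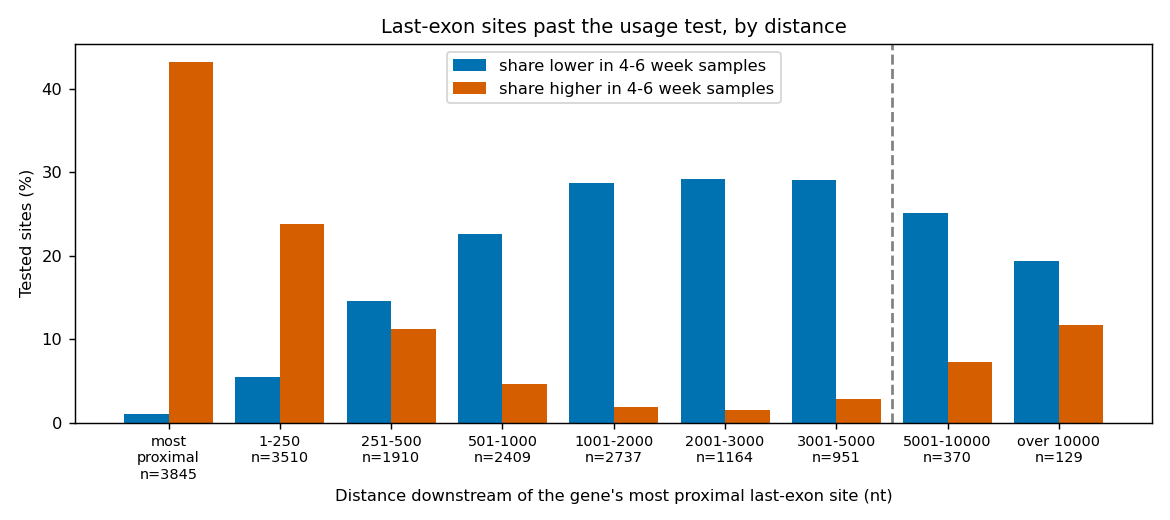
Percentage of tested last-exon pAs whose share was lower or higher in 4–6 week samples at an adjusted p under 0.05 (y axis) by distance from the gene's most proximal last-exon pA (x axis, nt, with the number tested); the dashed line marks 5000 nt. Lower calls level off at about 29% between 1001 and 5000 nt and drop to 19.4% beyond 10000 nt, where higher calls reach 11.6%.

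The kind of pA divided the calls. Of 180 same-exon members tested 58 were lower (32.2%) and 5 higher (2.78%), which were 4933403F05Rik, Bend4, Map3k2, Sbno1 and Xpo7. Past the annotated end 32 of 195 were lower (16.4%) and 21 higher (10.8%). Behind a splice acceptor 23 of 111 were lower (20.7%) and 15 higher (13.5%), and beyond 10000 nt, where this kind held 78 of the tested pAs, 13 were lower and 12 higher. The calls also divided by the place of the competing pA. For 412 tested members the most used other last-exon pA of the gene lay upstream, and of these 114 were lower and 26 higher, with a median log2 change of -1.07. For 87 it lay downstream, and of these 4 were lower and 16 higher (18.4%), with a median of 0.37. Those 4 lower pAs were 2 of Baz2b, 1 of Mga and 1 of Ube3a. Over all tested last-exon pAs 15.1% were lower and 17.4% higher, so the frequency of higher calls among the 87 was near that of all. All tested pAs were not split by the place of the competing pA. Whether this division is particular to very distal pAs was therefore not tested. The competing pA was itself very distal for 18 of the 118 lower and 16 of the 42 higher members.

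**Figure D3:**
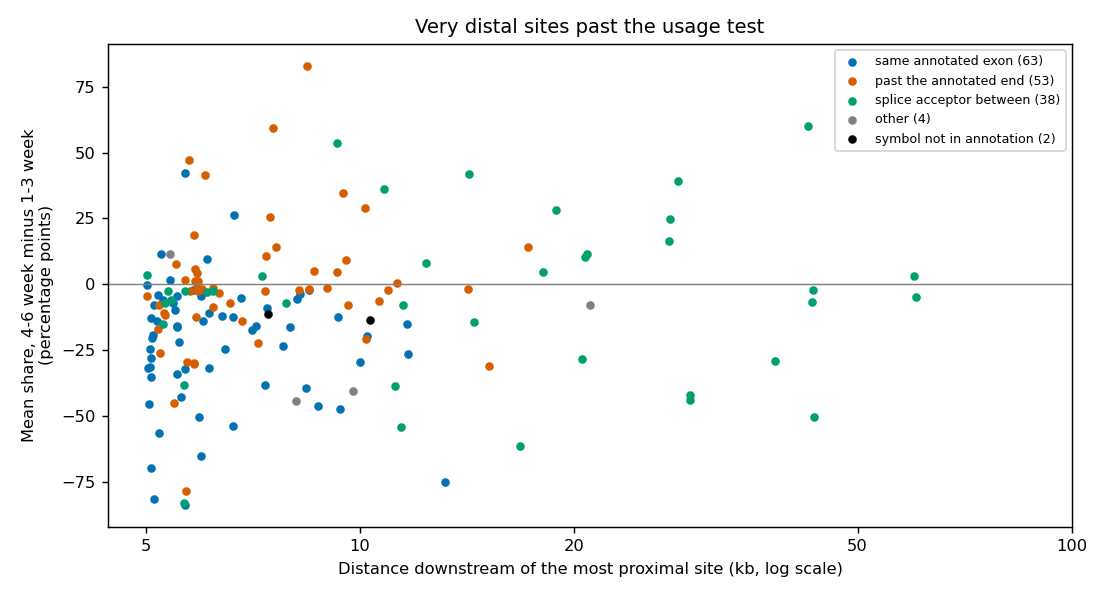
Difference in mean share between 4–6 week and 1–3 week samples (y axis, percentage points) for the 160 very distal pAs past the usage test, against distance from the most proximal pA (x axis, kb, log scale), coloured by kind. Of the 63 same-exon pAs 5 lie beyond 10 kb and 5 above 0, while pAs behind a splice acceptor reach beyond 20 kb on both sides of 0.

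The largest falls in share were those of Pappa, Lypla1, Pdpk1, Lmbrd2, Lpp, Ccdc93, Arl5b, D17Wsu92e, Rlim and Lamp2. In each the 3 shares of 4–6 week samples lay below the 3 of 1–3 week samples, and each call held in all 6 fits that left out a library. Over these 10 pAs a share in a single library had a 95% Wilson interval of 1.81 to 34.4 percentage points in width, with a median of 9.44.

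Pdpk1 encodes a kinase that activates Akt and other AGC kinases. Its pA at 5130 nt, at the far end of the same exon, had 118, 73 and 111 reads at 4w through 6w, against 362, 382 and 238 at 1w, 2w and 3w. Its share was 19.9, 8.90 and 12.3% at 4w, 5w and 6w, against 95.3, 97.2 and 93.7% at 1w, 2w and 3w (log2 change of -7.15 ± 0.54 SE, adjusted p = 1.83e-06). Very few reads fell between these 2 ends. The most proximal pA had 464, 738 and 767 reads at 4w through 6w, against 2, 1 and 14 at 1w, 2w and 3w. Reads of Pdpk1 were thus mostly of the long 3'UTR form in the younger testes and mostly of the short form in the older ones. Raw reads of the long form were also fewer in every older library. Its level on TMM-scaled counts did not pass the test (log2 change of -0.915, adjusted p = 0.0617, edgeR).

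Lypla1 encodes an acyl-protein thioesterase that removes palmitate from proteins. The pA at 5657 nt, which an annotated exon start separates from the most proximal pA, had shares of 23.1, 14.2 and 6.07% at 4w, 5w and 6w, against 98.5, 98.8 and 95.1% at 1w, 2w and 3w (log2 change of -8.16 ± 0.71 SE, adjusted p = 4.16e-06). The rise was at 2 pAs at 4078 and 4120 nt, which had 172 and 227 reads at 6w, against 0 and 3 reads at 1w. Since the main competing pA lies 1537 nt upstream of the very distal one, the distance of 5657 nt to a rare most proximal pA (55 reads in all) does not measure the segment exchanged.

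Lpp encodes a LIM-domain protein of cell adhesions. Its pA at 13152 nt, in the same exon as the most proximal one, had 51, 32 and 33 reads at 4w through 6w, against 509, 236 and 74 at 1w, 2w and 3w. Its share was 35.4, 15.3 and 14.7% at 4w to 6w, against 98.6, 97.9 and 94.9% at 1w to 3w (log2 change of -7.42 ± 0.66 SE, adjusted p = 4.29e-06). In the older testes the reads were spread over 4 pAs within 249 nt of the start of the set, so that a 3'UTR segment of about 13 kb separated the forms.

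Pappa encodes a secreted metalloprotease that cleaves IGF-binding proteins. Its pA at 5671 nt had 2, 0 and 0 reads at 4w through 6w, against 164, 122 and 17 at 1w, 2w and 3w. The share was 7.14% at 4w, and the 0 of 36 reads at 5w and 0 of 31 at 6w allow up to 8.33 and 9.68%, against 91.1, 90.4 and 77.3% at 1w, 2w and 3w (log2 change of -8.27 ± 0.88 SE, adjusted p = 1.34e-05). With 28 to 36 reads in each older library this gene had the thinnest older counts of those with the largest falls.

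The other falls were of the same course. Lmbrd2, the only one of the 10 past the annotated end (4164 nt past it), had 14.6, 9.38 and 6.61% at 4w, 5w and 6w, against 93.3, 96.4 and 77.1% at 1w, 2w and 3w at its pA of 5688 nt. Arl5b, an Arf-like small GTPase, had 28.8, 19.1 and 17.8% at 4w, 5w and 6w, against 94.3, 93.0 and 74.7% at 1w, 2w and 3w. Ccdc93, a subunit of an endosomal sorting complex, had 15.0, 11.1 and 0.680%, against 91.7, 80.9 and 64.2%. In all 10 of the largest falls the 3w value was the lowest of the younger 3, below 1w and 2w but well above 4w. Rlim, an X-linked ubiquitin ligase, had 12.2, 8.97 and 13.8% at 4w, 5w and 6w, against 74.8, 69.1 and 61.1% at 1w, 2w and 3w.

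**Figure D4:**
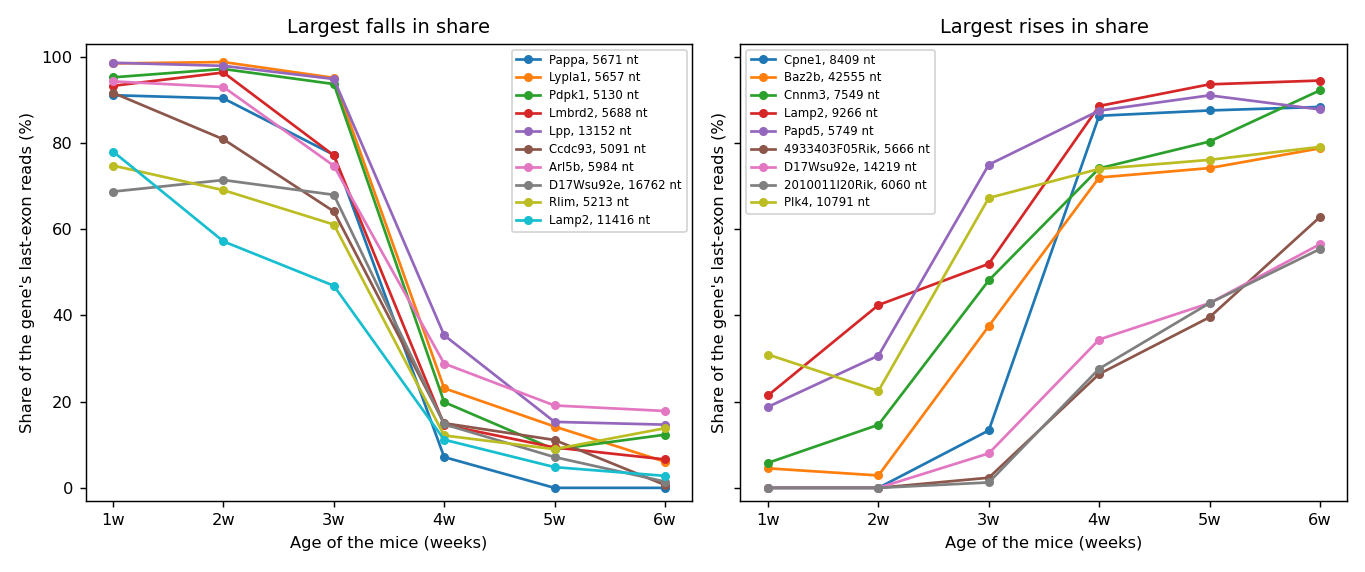
Share of the gene's last-exon reads (y axis, %) at 1w to 6w (x axis) for the 10 very distal pAs with the largest fall (left) and 9 of the 10 with the largest rise (right) in mean share; each line is 1 pA, with its distance from the most proximal pA. The falling pAs drop most between 3w and 4w, while of the rising ones Baz2b, Cnnm3, Lamp2, Papd5 and Plk4 lie above 30% at 3w and the others below 15%.

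Among the largest rises were those of Cpne1, Baz2b, Cnnm3, Lamp2, Papd5, 4933403F05Rik, D17Wsu92e, 2010011I20Rik and Plk4. In each the 3 shares of 4–6 week samples lay above the 3 of 1–3 week samples, and Wilson intervals were 0.828 to 25.8 percentage points wide. Of these 9, Plk4 lost its call when 2w (adjusted p = 0.0786) or 6w (adjusted p = 0.0606) was left out, and the other 8 kept theirs in all 6 such fits.

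Past the annotated end, Cpne1, a copine that binds membranes with calcium, had 139, 141 and 198 reads at its pA of 8409 nt at 4w, 5w and 6w, against 0, 0 and 4 at 1w, 2w and 3w. Its share was 86.3, 87.6 and 88.4% at 4w to 6w, against 13.3% at 3w and limits of 4.76 and 5.45% from 0 of 63 reads at 1w and 0 of 55 at 2w (log2 change of 7.77 ± 0.84 SE, adjusted p = 1.45e-05). The pA at 1468 nt, where the annotation ends the gene, had 13, 8 and 8 reads at 4w through 6w, against 59, 54 and 26 at 1w, 2w and 3w. Papd5, a noncanonical poly(A) polymerase, had 87.5, 91.1 and 87.8% of its reads at 5749 nt at 4w, 5w and 6w, against 18.8, 30.7 and 75.0% at 1w, 2w and 3w (log2 change of 3.52 ± 0.75 SE, adjusted p = 0.0023). This pA had 144 reads at 3w and 27 at 2w, so its rise came a week before that of Cpne1. Cnnm3, of a family of magnesium transport proteins, had 74.1, 80.4 and 92.2% at 7549 nt at 4w, 5w and 6w, against 5.81, 14.6 and 48.1% at 1w, 2w and 3w (adjusted p = 0.00103). 2010011I20Rik had 27.7, 42.9 and 55.4% at 6060 nt at 4w, 5w and 6w, against 3 of 239 reads (1.26%) at 3w and none at 1w or 2w. Within a same annotated exon only 4933403F05Rik was among these 9, at 5666 nt with 26.4, 39.6 and 62.8% at 4w, 5w and 6w, against 2.35% at 3w and no read among 460 at 1w and 320 at 2w.

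Behind a splice acceptor the large rises named here were exchanges between neighbouring very distal pAs. Lamp2, a lysosomal membrane protein known for alternative last exons, had 809, 1089 and 1223 reads at 9266 nt at 4w, 5w and 6w, against 387, 546 and 235 at 1w, 2w and 3w. At its pA of 11416 nt there were 102, 56 and 36 reads at 4w through 6w, against 1407, 736 and 212 at 1w, 2w and 3w. The share of the nearer pA was 88.6, 93.6 and 94.5% at 4w to 6w and 21.5, 42.4 and 52.0% at 1w to 3w (log2 change of 4.37 ± 0.56 SE, adjusted p = 4.56e-05), and that of the farther pA was 11.2, 4.82 and 2.78% at 4w to 6w and 78.0, 57.2 and 46.9% at 1w to 3w (log2 change of -4.80 ± 0.64 SE, adjusted p = 5.92e-05). The most proximal pA had 2 to 35 reads per library.

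Baz2b, a bromodomain protein, had 229, 210 and 208 reads at 42555 nt at 4w, 5w and 6w, against 12, 8 and 122 at 1w, 2w and 3w. The pA at 43398 nt, 843 nt farther on, had 86, 65 and 56 reads at 4w through 6w, against 209, 242 and 186 at 1w, 2w and 3w. The nearer pA rose by a log2 change of 4.77 ± 0.86 SE (adjusted p = 0.000685) and the farther one fell by 3.34 ± 0.56 SE on the log2 scale (adjusted p = 0.000404). Plk4, the kinase that starts centriole duplication, had 131, 137 and 144 reads at 10791 nt at 4w, 5w and 6w, against 30, 27 and 148 at 1w, 2w and 3w, and at 11205 nt 15, 16 and 14 against 54, 77 and 48. Its nearer pA was thus already the larger at 3w. In D17Wsu92e the pA at 14219 nt had 21, 30 and 39 reads at 4w through 6w, against 0, 0 and 2 at 1w, 2w and 3w, and the pA at 16762 nt had 9, 5 and 1, against 33, 30 and 17. Its most proximal pA also gained share, with 11, 18 and 10 reads at 4w to 6w against 0, 0 and 1 at 1w to 3w (usage test, adjusted p = 0.00462).

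**Figure D5:**
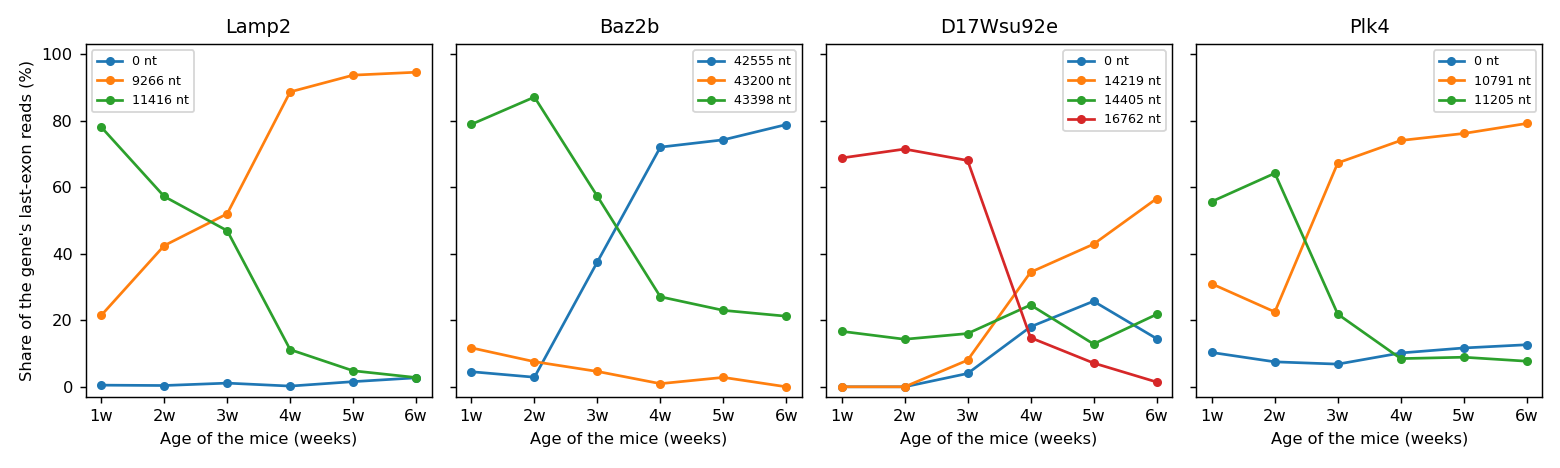
Share of the gene's last-exon reads (y axis, %) at 1w to 6w (x axis) for every last-exon pA with 30 reads or more in Lamp2, Baz2b, D17Wsu92e and Plk4, each line being 1 pA with its distance from the most proximal pA. In each gene the pA that gains share lies upstream of the very distal pA that loses it, as in Lamp2 with 9266 nt and 11416 nt.

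In all there were 12 genes with very distal pAs called in both directions, and in all 12 the lower pA with most reads lay downstream of the higher pA with most reads, by 310 to 5028 nt. Shares within a gene add up, so a rise of one pA lowers the others, but the order along the gene is not set by that. Tested last-exon pAs outside the members leaned the same way. Of the most proximal pAs 43.2% were called higher and 1.04% lower. Of those over 3000 and up to 5000 nt, 2.84% were called higher and 29.0% lower. The order was not counted for pairs of other last-exon pAs. Whether it is particular to very distal pAs was therefore not tested. Among the 12 genes, named after their values were seen, were also Aak1, Ccni, Mbd5, Papola, Pitpnm2 and Prdm2. Papola, the canonical poly(A) polymerase, had mean shares of 29.4% in 4–6 week and 4.53% in 1–3 week samples at 27239 nt, and 25.1 and 69.0% at 29051 nt. Aak1, a kinase of clathrin adaptors, had 34.4 and 5.25% at 10154 nt, and 45.2 and 76.4% at 15182 nt. Prdm2, of a methyltransferase family, had 36.6 and 8.40% at 18834 nt, and 37.9 and 66.3% at 20489 nt.

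The steps between adjacent weeks are given as a description, since members called between 4–6 week and 1–3 week samples tend by that choice to have their largest step between 3w and 4w. Of the 118 members called lower, the largest fall between adjacent libraries was 4w vs. 3w in 54, 3w vs. 2w in 50, 2w vs. 1w in 10, 5w vs. 4w in 4 and 6w vs. 5w in 0. The median step over these members was -7.78 percentage points between the 4w and 3w libraries and -5.19 between the 3w and 2w libraries. Of the 42 called higher, the largest rise was 4w vs. 3w in 21 and 3w vs. 2w in 9. Called members were partly seen in 1 period only, with 14 of the 42 higher pAs having no read at 1w to 3w and 9 of the 118 lower pAs none at 4w to 6w. These 23 were rare, with 7 to 34 reads each. Jund, which encodes an AP-1 transcription factor, had higher calls at 3 pAs 9345 to 17034 nt past the annotated end. The farthest of them had 178, 252 and 216 reads at 4w through 6w, against 0, 0 and 23 at 1w, 2w and 3w.

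The hexamers differed between the pAs that lost and gained share. AATAAA stood before 12 of the 42 higher members (28.6%, 95% Wilson interval 17.2 to 43.6%), 86 of the 118 lower ones (72.9%, 64.2 to 80.1%) and 171 of the 339 with neither call (50.4%, 45.1 to 55.7%). None of the 11 hexamers was found before 15 higher members (35.7%) and 5 lower ones (4.24%). The other last-exon pAs had the same order, with AATAAA before 18.4% of 2921 higher and 59.7% of 2454 lower ones. No called member had 7 or more A in the 10 nt after the pA. The letters describe the sequence and not the binding of a factor.

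Of the 8 very distal pAs with most reads, Ttbk2, Cbx5, Celf2 and Lamp2 passed the usage test and Nfat5 and Pcmt1 did not, while Letm2 and Spata3 could not be tested. The largest shifts of the 8 were those of Lamp2 at 9266 nt, given above, and Celf2, given with the levels. Ttbk2, a kinase needed for cilium formation, had 2279, 1850 and 1813 reads at 6798 nt at 4w, 5w and 6w, against 2167, 2206 and 2949 at 1w, 2w and 3w. Its share was 91.4 to 94.4% in 4–6 week samples and 96.8 to 98.8% in 1–3 week samples, a small fall that passed the test (adjusted p = 0.00457). For Nfat5, the osmotic stress transcription factor, the share at 8225 nt was 96.8 to 97.0% in 4–6 week samples and 97.2 to 98.6% in 1–3 week samples (adjusted p = 0.239), while its reads numbered 454, 276 and 276, against 2117, 2390 and 924. Cbx5, which encodes the heterochromatin protein HP1 alpha, had 82.5, 75.0 and 71.7% at 7969 nt at 4w, 5w and 6w, against 95.6, 95.6 and 86.6% at 1w, 2w and 3w (adjusted p = 0.00651). Behind a splice acceptor, Letm2, of the mitochondrial inner membrane, had 3739 of its 3741 last-exon reads at 15504 nt, Spata3 had 3026 of 3040 at 5460 nt, and Pcmt1, a protein repair methyltransferase, had 3241 of 3364 at 7368 nt. For these 3 the distance is set by a most proximal pA that hardly was used. Letm2 had 959, 1102 and 906 reads at 4w through 6w, against 73, 113 and 586 at 1w, 2w and 3w, and Spata3 698, 1073 and 1223 against 1, 1 and 30.

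Among the pAs with 50 reads or more, the farthest were 2 of Ptprk, a receptor tyrosine phosphatase, at 333631 and 332348 nt, and 1 of Nsd1, an H3K36 methyltransferase, at 104260 nt. Ptprk had 9, 5 and 4 reads at the first of these at 4w, 5w and 6w, against 98, 39 and 8 at 1w, 2w and 3w, which are 75.0, 62.5 and 66.7% of its last-exon reads in the older and 68.1, 54.9 and 33.3% in the younger libraries. Nsd1 had 2, 3 and 1 reads at 4w through 6w, against 48, 38 and 8 at 1w, 2w and 3w. All 3 lay behind splice acceptors, and their genes had under 20 last-exon reads in some library, so no usage test was made.

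The shares say how reads divide within a gene, so the level of each pA was tested as well, with edgeR on TMM-scaled counts over all 18366 pAs kept by its filter on low counts. Of the 275 very distal pAs kept, 120 (43.6%) were lower in 4–6 week samples, against 22.6% of all pAs, and 23 (8.36%) were higher, against 21.8% of all. The median log2 change was -1.20 for the members and 0.03 for all pAs. The number of lower calls rested on 5w and 6w, with 4 lower and 10 higher members without 5w and 8 lower and 9 higher without 6w, while the median stayed at -1.22 and -1.19. Lower calls dropped likewise over all pAs, to 0.855% without 5w and 0.904% without 6w, with 10.2 and 9.81% higher. Levels also depend on the scaling, since with PASS read totals in place of TMM the median of all pAs was -1.14 and that of the members -2.41. On these totals 198 members were lower (72%) and 18 higher (6.55%), against 47.2% lower and 15.9% higher of all pAs. Of the 118 members with a lower share, the pA itself had fewer TMM-scaled reads in 4–6 week samples in 111 and the rest of the gene had more in 107, with both in 100. On PASS read totals the pA had fewer reads in all 118 and the rest of the gene more in 68. A lower share requires the pA to fall relative to the rest, so these counts partly follow from the choice of members. Of the 42 with a higher share, the pA had more TMM-scaled reads in 39 and the rest fewer in 26. On PASS read totals both of these counts were 37. All tested pAs were not counted in this way. Celf2, an RNA-binding splicing regulator, is an example of loss at the very distal pA. It had 127, 77 and 72 reads at 5081 nt at 4w, 5w and 6w, against 1203, 1060 and 346 at 1w, 2w and 3w, and a share of 85.2, 65.3 and 61.0%, against 98.7, 98.7 and 98.0% (adjusted p = 2.90e-05).

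By gene family the counts were small, and each is given beside that of all last-exon pAs of the family, at every distance. The lists were matched by symbol stem and do not hold every gene of a function. Of the 16 zinc finger gene pAs tested 2 were lower, both of Zfp704, and 0 higher, against 54 lower and 62 higher of 353 in the family, with a median log2 change of -1.08 against -0.03. Of the 15 pAs in the ubiquitin list 1 (Fbxo34) was lower and 1 (Rnf41) higher, against 118 lower and 127 higher of 612, with a median of -0.66 against -0.05. These counts are too small to compare the frequency of lower calls with that of the families. In both lists the median of the members lay below that of the family. The ubiquitin ligase genes Rlim and Ube3a, each with a lower call, lie outside that list. Of the 11 pAs in the kinase list 4 were lower, in Csnk1g1, Ttbk2 and Dyrk1b, which had 2, and 1 was higher, in Map3k2, against 46 lower and 62 higher of 281, with a median of -1.30 against 0.07. The kinase genes Pdpk1 and Pak3, with lower calls, and Plk4 and Aak1, with calls both ways, lie outside that list. Of the 11 chromatin and transcription regulator pAs 2 were lower, in Kdm5a and Mbd5, and 1 was higher, in Mbd5, against 30 lower and 43 higher of 246, with a median of -0.87 against 0.15. RNA-binding protein genes had 2 lower, in Celf2 and Msi2, and 0 higher of 5, against 22 lower and 28 higher of 131, with a median of -1.25 against 0.32. Small GTPase genes had 1 lower, in Arl5b, and 0 higher of 5, against 56 lower and 66 higher of 327, with a median of -0.73 against -0.05. Solute carrier and channel genes had 1 lower, in Slc7a6, and 1 higher, in Slc38a6, of 5, against 53 lower and 61 higher of 312, with a median of -2.05 against -0.07. The remaining lists had positive medians. Adhesion and receptor genes had 1 lower, in Lrrc58, and 0 higher of 6, against 45 lower and 52 higher of 280, with a median of 0.54 against 1.40. Motor and cytoskeletal genes had neither among 3, against 29 lower and 31 higher of 148, with a median of 0.42 against 0.02. The genes outside those of the named members were named after their values were seen.

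Well-covered list members included pAs with a call, pAs with none and pAs that could not be tested. Zfp704 had 13.0, 6.67 and 8.54% at 10004 nt at 4w, 5w and 6w, against 34.5, 49.5 and 33.3% at 1w, 2w and 3w (adjusted p = 0.0024). Csnk1g1, a casein kinase, had 86.8, 80.9 and 83.9% at 5076 nt, against 94.8, 97.7 and 98.0% (adjusted p = 0.00714), and Lrrc58 had 20 of 60, 23 of 66 and 37 of 74 reads at 7348 nt at 4w to 6w, against 165 of 200, 98 of 118 and 62 of 92 at 1w to 3w (adjusted p = 0.00246). Shares that did not pass the test were 63.9, 67.1 and 52.9% in 4–6 week samples against 73.7, 76.0 and 66.5% in 1–3 week samples for the RNA-binding protein gene Rbm33 at 5398 nt (adjusted p = 0.261) and 32.3, 25.4 and 28.3% against 41.7, 41.0 and 34.0% for the F-box gene Fbxl20 at 7109 nt (adjusted p = 0.292). Igf1r, the receptor of IGF1, had 81.0 to 96.0% of its reads at a pA 7070 nt past the annotated end in 4–6 week samples and 80.2 to 82.6% in 1–3 week samples (adjusted p = 0.252), with 41, 17 and 24 reads against 360, 279 and 90. Chd4, a chromatin remodelling ATPase, had 56.5 to 74.6% at 33326 nt in 4–6 week samples and 66.1 to 89.6% in 1–3 week samples (adjusted p = 0.289). The chloride/proton exchanger gene Clcn3 had under 20 reads at 3w and was not tested for usage. Its pA at 28343 nt had 32, 35 and 43 reads at 4w through 6w, against 0, 0 and 1 at 1w, 2w and 3w. Rasal2, a GTPase-activating protein of Ras, had 69.0, 86.0 and 61.7% at 5343 nt at 4w, 5w and 6w, against 80.2, 62.4 and 73.4% at 1w, 2w and 3w (adjusted p = 0.983), and Cep70, a centrosomal protein, had 9.70, 10.7 and 10.4% at 10659 nt, against 16.4, 8.97 and 2.77% (adjusted p = 0.637). In both the periods overlapped. Tet3, which oxidizes methylated cytosine, had too few reads for the usage test, with 28, 15 and 7 at 5296 nt at 4w through 6w, against 671, 476 and 98 at 1w, 2w and 3w. Its share was 87.5 to 93.3% in 4–6 week samples and 91.5 to 93.3% in 1–3 week samples, and the level of the pA was lower (log2 change of -3.82, adjusted p = 0.0139, edgeR on TMM-scaled counts).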

How the data were processed

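Reads of 3'READS libraries were mapped to mm9 with Bowtie2, as the submitters' processing notes name them (version not given in the sources used here), and the authors kept reads with at least 2 unaligned T, called PASS reads, and merged cleavage sites lying within 24 nt into 1 pA. The authors deposited raw counts of PASS reads per pA and library, with no normalization, and a gene and location for each pA.

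Last-exon pAs were placed against the GENCODE vM1 annotation, which is on the same build, with 24 nt of tolerance, and sequence was read from the mm9 genome. The usage test used edgeR 4.0.16 (R 4.3.3) with a term for each library, the pA, and the pA by period, on genes with at least 20 last-exon reads in every library and pAs and remainders with at least 5 reads. It was tested on simulated data. The level test used TMM. Alternatives used DESeq2 1.42.0, limma 3.58.1 on log2 ratios with 1 read added, PASS read totals, other filters, and leaving out each library. Named pAs were the 10 largest falls and 10 largest rises past the usage test without overlap and with at least 50 reads, the 8 with most reads, the 3 farthest, those next to 5000 nt, and up to 3 per gene list. The members and lists were chosen with earlier results of these data known. Intervals cover counting error only, since PCR copies were not told apart. Gene lists were matched by symbol. Chromosome 18 sequence is not shown, and results for some genes and sequences that these rules would name are not reported here.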

Additional observations from a re-analysis of the deposited data

How the results depend on the processing

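No paired analysis was possible because each age had 1 library and no replicate numbers are shared. Against the 118 lower and 42 higher calls of usage, leaving out 1 library gave 75 to 151 lower and 26 to 55 higher, and setting each pA against the most proximal pA alone gave 64 lower and 7 higher of fewer pAs tested. Beyond 10000 nt there were 25 lower and 15 higher. A gene minimum of 50 reads gave 23 higher and a minimum of 20 over all libraries 74. Against 120 lower and 23 higher calls of level, leaving out 1 library gave 4 to 160 lower and 9 to 57 higher, PASS read totals 198 lower, DESeq2 41 higher, no filter on low counts 66 higher, and leaving out 3w and 4w, an alternative added after seeing the data, 54 higher. The pooled share of very distal pAs differed by -5.12 percentage points with only pAs beyond 10000 nt, against -9.17 for all. The cause of these shifts was not tested, apart from the smaller sets.

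Over 36 named pAs and 441 values under the alternatives, 424 kept direction and side of the threshold, 5 lost and 5 gained the call, and 7 reversed, all in pAs with no call. For Pcmt1 the log2 change ranged from -0.11 to 1.74 over the fits without 1 library, and was -5.66 against the most proximal pA. For Rasal2 it ranged from -0.46 to 0.40 over those fits and was -1.41 against the most proximal pA, and for Cep70 it ranged from -0.29 to 1.07 and was -0.24 without 3w and 4w. Against the most proximal pA alone the rises of Lamp2 at 9266 nt, Papd5 and Plk4 were not called. AATAAA stood before 52.2% of the members with a window of 50 nt before to 10 nt after the pA, against 50.9% with 40 nt.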
